A study of Homo sapiens with 7 samples.

Results

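The 2550 SP1 ChIP-seq peaks on chromosomes 4, 5, 13 and 18 are described here, 9.44% of the 27015 peaks mapped in the established colon carcinoma line HCT116, of human origin. They were taken by chromosome alone, 823 on chromosome 4, 980 on chromosome 5, 397 on chromosome 13 and 350 on chromosome 18, and are set against the 24164 peaks of the 18 other autosomes. Insertions of the piggyBac (PB) transposon were mapped after expression of the transposase fused to SP1 (SP1_PB, 2 libraries) or of the wild-type transposase (WT_PB, 3 libraries), in cells of the same line selected with G418 for an integrated transposon. No further treatment is named. Whether replicates are separate cultures is not stated in the labels, so p-values over libraries reflect the spread of these samples alone, which may be technical. The peaks came from 1 ChIP-seq sample.

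SP1 recognises GC-rich boxes through its zinc fingers and acts at many promoters, those of broadly expressed genes among them. The piggyBac transposase cuts a transposon out of a donor and places it at TTAA sites, and the wild-type enzyme is known to favour open, active chromatin. In the calling card method a transcription factor joined to the transposase marks its binding sites with nearby insertions, and the wild-type enzyme gives the background at the same sites. The question was whether a peak on chromosomes where peaks are few drew the fusion as strongly as a peak elsewhere.

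The chromosomes were poor in genes and in peaks. They carried 4.53 peaks per Mb of hg18, against 10.5 on the other autosomes, and chromosomes 13, 4, 18 and 5, with 3.48, 4.30, 4.60 and 5.42 peaks per Mb, were the 4 lowest of the 22 autosomes. RefSeq (GRCh38.p14) lists 4.06 protein-coding genes on them per Mb of hg18 covered by the data, against 7.31 on the other autosomes. Chromosomes 13, 18 and 4 were the lowest by genes as well, while chromosome 8 (4.89 per Mb) lay just below chromosome 5 (5.00). Among 5168 RefSeq promoters of these chromosomes, 250 bases before to 50 after the gene start, 38.8% held the GC box GGGCGG on either strand, against 46.2% of 28557 promoters of the other autosomes and 45.0% of all promoters (chromosome 8 was not analysed here for this). Which of these promoters lie under a peak was not determined.

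By strength and width the peaks were much like those elsewhere, and they differed in spacing. The median score, the authors' own measure from the peak caller MACS, was 389.7 here, with middle values from 278 to 591, and 386 on the other autosomes (273 to 600.1). The median width was 818 bp, against 828 bp. The gap to the nearest other peak had a median of 19.5 kb, against 6.29 kb on the other autosomes. Isolated peaks, with no other peak within 50 kb, made up 32.8% of the peaks (837), against 15.8% (3810). Chromosome 4 had the highest share of isolated peaks of all autosomes, 39.5%, and chromosomes 13 and 18 followed with 32.2% and 32.0%, whereas chromosome 5, with 27.8%, lay below chromosomes 6 and 3.

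Each distinct position was counted as 1 insertion. The SP1_PB libraries held 18856 and 14467 insertions, with 2206 and 1744 on chromosomes 4, 5, 13 and 18. The WT_PB libraries held 58850, 67423 and 57419, with 10671, 12267 and 10246 on these chromosomes. The chromosomes thus took 11.9% ± 0.252 of SP1_PB insertions (SD, n = 2) and 18.1% ± 0.187 of WT_PB insertions (SD, n = 3). On them the median was 6 and 13 reads per position in the SP1_PB libraries and 3 to 4 in the WT_PB libraries. Neighbouring positions within 3 bp, closer than TTAA sites can lie, made up more of the SP1_PB libraries: merging them would remove 9.79% and 15.6% of the SP1_PB positions here, against 4.04% to 4.98% of the WT_PB positions. The 2 SP1_PB libraries shared 283 positions on these chromosomes, 12.8% of the first and 16.2% of the second, and 194 of these were near a peak (within 1 kb). Any pair of WT_PB libraries had 2.19% to 3.87% of a library's positions in common.

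On these chromosomes insertions of the SP1 fusion were found near peaks at several times the rate of wild-type insertions. Within 1 kb of a peak lay 37.1% and 37.3% of the SP1_PB insertions (95% Wilson intervals 35.1 to 39.1 and 35.1 to 39.6), against 5.85%, 5.40% and 5.94% of the WT_PB insertions, and the groups did not overlap. The ratio of the pooled shares was 6.51 (95% interval 6.14 to 6.91, Fisher's exact p below 1e-300), and with each SP1_PB library set against each WT_PB library it ran from 6.24 to 6.92. The exact permutation test over the 5 libraries (two-sided) gave p = 0.1, and no smaller value is possible with 10 splits. On the other autosomes the shares were 42.7% ± 0.446 and 8.65% ± 0.228, a ratio of 4.94 (4.83 to 5.05). Inside peaks the ratio was 15.7 (14.0 to 17.6) on chromosomes 4, 5, 13 and 18, and 10.6 (10.1 to 11.0) on the other autosomes. All intervals cover counting error only and treat insertions as independent.

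As shares of the insertions on these chromosomes, the excess lay within 10 kb of a peak. The SP1_PB share inside peaks was 19.1% and 19.8%, against 1.43%, 1.17% and 1.12% in WT_PB. At 1 to 500 bp the SP1_PB shares were 14.1% and 14.2%, against 2.90% to 3.46% in WT_PB, a ratio of 4.60 (4.18 to 5.08). The ratio was 2.61 from there to 1 kb, 2.67 at 1 to 2 kb, 1.49 at 2 to 5 kb and 1.26 (1.09 to 1.46) at 5 to 10 kb, and below 1 farther out. At distances over 100 kb stood 21.4% ± 1.73 of SP1_PB insertions and 50.4% ± 0.897 of those of WT_PB (ratio 0.427, 0.402 to 0.453). In all 9 distance ranges the libraries of the groups did not overlap and Fisher's exact test passed after adjustment over the 9 (highest adjusted p = 0.00275, at 5 to 10 kb). Because these are shares of 1 library's insertions on these chromosomes, more insertions near peaks mean a lower share farther away. As shares of the whole library, the ratio here was 1.75 at 1 to 2 kb, 0.980 at 2 to 5 kb and 0.827 at 5 to 10 kb. By that measure no excess was seen past 2 kb. On the other autosomes the ratio at 5 to 10 kb, as shares of their own insertions, was 1.01 (0.967 to 1.06).

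**Figure D1:**
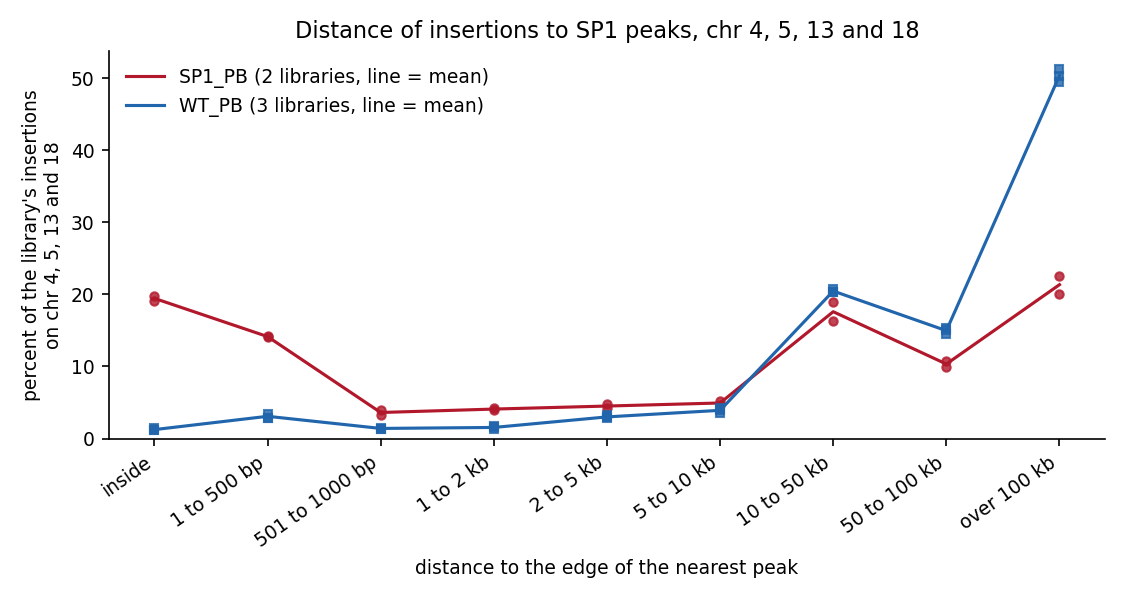
Percent of each library's insertions on chromosomes 4, 5, 13 and 18 (vertical axis) in 9 ranges of distance to the edge of the nearest peak (horizontal axis), for 2 SP1_PB and 3 WT_PB libraries; points are libraries and lines are means. Inside peaks SP1_PB stands at 19.1% and 19.8% and WT_PB at 1.12% to 1.43%, and beyond 100 kb the order is turned, with means of 21.4% and 50.4%.

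Counted per peak, the peaks on these chromosomes drew on average slightly more SP1_PB insertions than those of the other autosomes. SP1_PB replicates 1 and 2 had 818 and 651 insertions within 1 kb of the 2550 peaks here, and 6864 and 5328 within 1 kb of the 24164 peaks of the other autosomes. The ratio was 1.14 (1.08 to 1.21, two-sided exact binomial p = 2.38e-06 on pooled insertions, counting error only), and 1.13 and 1.16 in the 2 libraries. The wild-type transposase differed by more. The WT_PB libraries had 624, 662 and 609 insertions at the same peaks of chromosomes 4, 5, 13 and 18, and 4125, 4479 and 3943 at those of the other autosomes, ratios per peak of 1.43, 1.40 and 1.46. The ground searched per peak was alike, 2.79 kb here and 2.75 kb elsewhere once overlapping flanks are counted once.

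Set against the wild-type insertions at the same peaks, the fusion was less enriched per peak on these chromosomes. SP1_PB over WT_PB insertions at peaks, as shares of the libraries, stood at 4.27 (3.99 to 4.57) on chromosomes 4, 5, 13 and 18 and at 5.36 (5.22 to 5.49) on the other autosomes. One ratio over the other was 0.798 (0.742 to 0.858, Fisher's exact p = 1.01e-09), with no overlap between the library values of the groups and an exact permutation p of 0.1, the smallest possible. Inside peaks alone it was 0.897 (0.790 to 1.02) and was not called. Set against the insertions of the same chromosomes away from peaks, the order turned. The odds of lying within 1 kb of a peak, SP1_PB over WT_PB, were 1.24 times as high here as on the other autosomes (1.14 to 1.35; exact permutation p = 0.1), also with no overlap between groups. The 2 measures differ in what they divide by: away from peaks the SP1_PB to WT_PB ratio was also lower here. In the distance ranges from 1 kb outward it was 0.630 (2 to 5 kb) to 0.894 (1 to 2 kb) times that of the other autosomes. Over 100 kb from a peak it was 0.797 times (0.737 to 0.862). More insertions of both groups lay that far out here, 21.4% of SP1_PB and 50.4% of WT_PB. On the other autosomes these shares were 11.0% and 34.2%.

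**Figure D2:**
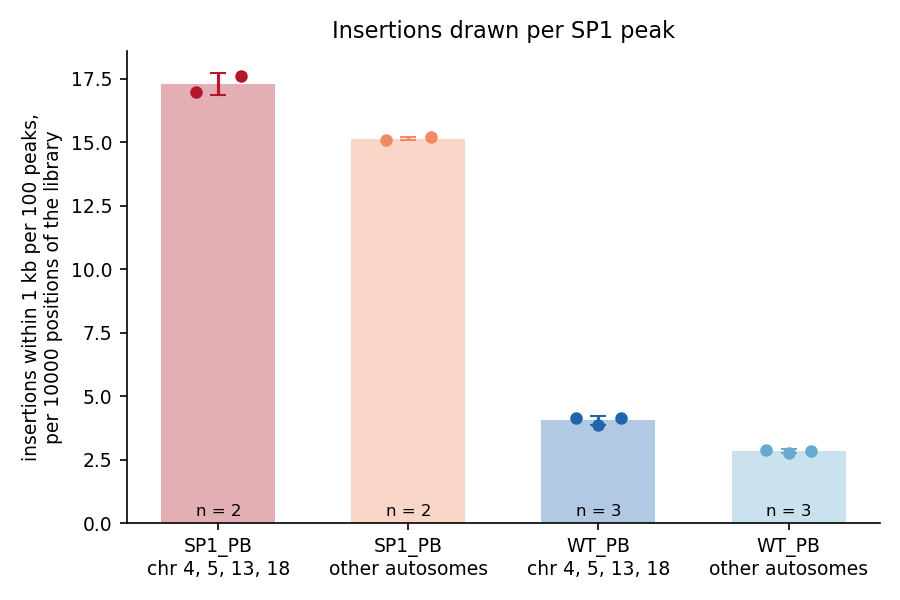
Insertions within 1 kb of a peak per 100 peaks and per 10000 positions of the library (vertical axis), for SP1_PB (2 libraries) and WT_PB (3 libraries), on chromosomes 4, 5, 13 and 18 and on the other autosomes; bars are means, error bars SD and points libraries. SP1_PB averages 17.3 and 15.2, WT_PB 4.06 and 2.83, so that both are higher on the peak-poor chromosomes, WT_PB by the larger factor.

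The values of the 4 chromosomes are also given singly, and differences among them were not tested. Pooled SP1_PB insertions per 100 peaks were 57.2 on chromosome 4, 56.4 on chromosome 5, 55.9 on chromosome 13 and 63.7 on chromosome 18, within the 33.6 (chromosome 22) to 65.3 (chromosome 3) of the other autosomes. WT_PB insertions per 100 peaks were 73.4, 73.5, 84.4 and 67.4, and chromosome 13 was the highest of the 22. The ratio of library shares was 4.30 (3.81 to 4.85) on chromosome 4, 4.23 (3.79 to 4.73) on chromosome 5, 3.65 (3.08 to 4.33) on chromosome 13 and 5.21 (4.34 to 6.26) on chromosome 18. These intervals overlap between chromosomes 4, 5 and 13, and between 4, 5 and 18, while chromosome 13 ended just below the start of chromosome 18.

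Each autosome was tested against all the others for its SP1_PB over WT_PB insertions at peaks, with Fisher's exact test and Benjamini-Hochberg adjustment over 22. Of the 22 autosomes 36.4% were called lower and 13.6% higher. By Fisher's exact test chromosome 13 had a ratio of 0.696 to the rest (0.586 to 0.826, adjusted p = 1.39e-04), chromosome 5 of 0.804 (0.718 to 0.901, adjusted p = 6.18e-04) and chromosome 4 of 0.818 (0.724 to 0.925, adjusted p = 0.00423), all called lower. Chromosome 18 was not called, at 0.999 (0.831 to 1.20, adjusted p = 1.00 in Fisher's exact test). Chromosome 15, with 7.82 peaks per Mb, stood with them at 0.705, and chromosome 19, the densest in peaks, was the highest at 2.43. Chromosomes 6 (0.796), 2 (0.812), 10 (0.867) and 8 (0.873) were also called lower. Chromosome 3, with 5.70 peaks per Mb, was not called, at 0.964. A low ratio was thus not particular to chromosomes 4, 5 and 13. Without SP1_PB replicate 1 the number of called autosomes fell to 7, against 11 with all libraries, and chromosome 4 was no longer called. Chromosome 4 was also lost with positions within 3 bp merged, with 1 kb clusters, with at least 2 reads per position and with libraries pooled. At peaks scoring at or above the median only chromosome 13 of chromosomes 4, 5, 13 and 18 was called, and inside peaks none of them was.

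**Figure D3:**
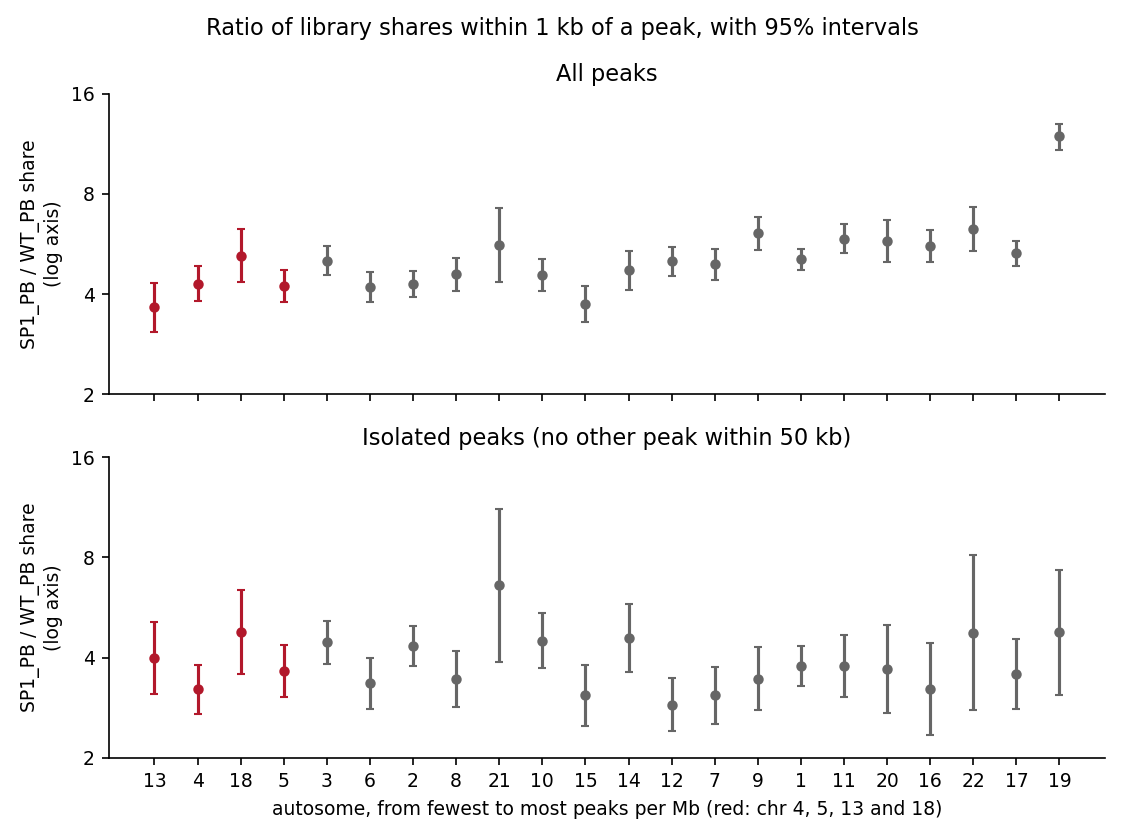
Ratio of SP1_PB to WT_PB library shares within 1 kb of a peak (vertical log axis) for each of the 22 autosomes, from fewest to most peaks per Mb, at all peaks (upper panel) and at isolated peaks (lower panel); bars are 95% intervals and red marks chromosomes 4, 5, 13 and 18. At all peaks the ratio runs from 3.65 on chromosome 13 to 11.9 on chromosome 19, and at isolated peaks from 2.89 on chromosome 12 to 6.61 on chromosome 21.

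At isolated peaks the counts of the fusion were alike. There were 40.9 and 31.8 SP1_PB insertions per 100 peaks on chromosomes 4, 5, 13 and 18, and 40.7 and 31.8 on the other autosomes. The 2 libraries differ in depth (18856 and 14467 insertions), and these counts are not scaled for it. The ratio of the pooled counts, here over elsewhere, was 1.00 (0.918 to 1.09, exact binomial p = 0.946). WT_PB insertions at the same peaks were 36.6, 37.2 and 36.1 per 100 here and 34.7, 37.7 and 34.0 elsewhere. SP1_PB over WT_PB at isolated peaks was 0.972 times that of the other autosomes (0.868 to 1.09, Fisher's exact p = 0.644, exact permutation p = 0.4 over the 5 libraries). The interval leaves room for a difference of either sign within its bounds. It depended on the distance that defines isolation: with no other peak within 100 kb the ratio was 0.848 (0.726 to 0.990) and was called.

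At isolated peaks the intervals of the 4 chromosomes all overlapped, and differences among them were not tested. The SP1_PB to WT_PB ratio at isolated peaks was 3.21 (2.71 to 3.80) on chromosome 4, 3.65 (3.05 to 4.36) on chromosome 5, 3.99 (3.11 to 5.11) on chromosome 13 and 4.78 (3.58 to 6.39) on chromosome 18, all within the 2.89 to 6.61 of the other autosomes. Over the 22 autosomes the log2 ratio at all peaks rose with the density of peaks, with a Pearson's r of 0.808 and a Spearman's rho of 0.737, and without chromosome 19 r was 0.579. At isolated peaks r was 0.108 and rho -0.0209. Taken as shares of each chromosome's own insertions, the ratio near peaks fell with density instead, with r = -0.790 and rho = -0.826. Insertions per 100 peaks did not rise with density for either transposase, with r = -0.248 for SP1_PB and -0.733 for WT_PB, also on log2 values. These values describe 22 chromosomes that share the same libraries.

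Matching the peaks for the number of neighbours and for score together gave the same picture. In 16 strata of neighbours (0, 1 to 2, 3 to 5, 6 or more within 50 kb) and 4 equal classes of score, the other autosomes' rates predicted 1426 SP1_PB insertions at the peaks of chromosomes 4, 5, 13 and 18, and 1469 were found, a ratio of 1.03 (exact Poisson interval 0.978 to 1.08). The Mantel-Haenszel ratio of SP1_PB over WT_PB insertions was 0.982 (0.911 to 1.06). Before matching these values were 1.14 and 0.798. Restricted to peaks with a score at or above the median of all peaks, the matched count of SP1_PB insertions was 1.09 times that predicted (1.03 to 1.16) and was called. There, neighbours and score classes were counted anew among those peaks alone, so the matching is not the same.

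Insertions per peak of both transposases went down as neighbours became more numerous. For SP1_PB the pooled values here were 72.6 per 100 peaks with no neighbour, 68.9 with 1 to 2, 40.4 with 3 to 5 and 25.5 with 6 or more. WT_PB values went down more steeply, 109.8, 86.3, 41.2 and 18.3, so the ratio of library shares went up from 3.65 (3.29 to 4.04) through 4.40 and 5.41 to 7.68 (5.85 to 10.1). On the other autosomes the same 4 ratios were 3.75, 4.27, 6.31 and 9.44. One ratio over the other was 0.972, 1.03, 0.857 and 0.813, and none of the 4 passed Fisher's exact test (lowest adjusted p = 0.389).

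Peaks in dense groups were the exception by raw count. Peaks with 6 or more neighbours, 19.1% of those here and 40.0% elsewhere, drew 15.0 and 10.5 SP1_PB insertions per 100 here, against 22.8 and 17.5 on the other autosomes, a ratio of 0.633 (0.529 to 0.757). It was 0.705 (0.589 to 0.844) with chromosome 19 left out of the other autosomes, a choice made after seeing the data. WT_PB insertions at these peaks were lower too, at 0.778 times the other autosomes (0.630 to 0.962). With 1 to 2 neighbours, peaks here drew 1.17 times as many SP1_PB insertions (1.08 to 1.28) and 1.14 times as many WT_PB insertions (1.05 to 1.23) as those elsewhere. The matched ratio close to 1 is thus an average over strata that lay on both sides of it.

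**Figure D4:**
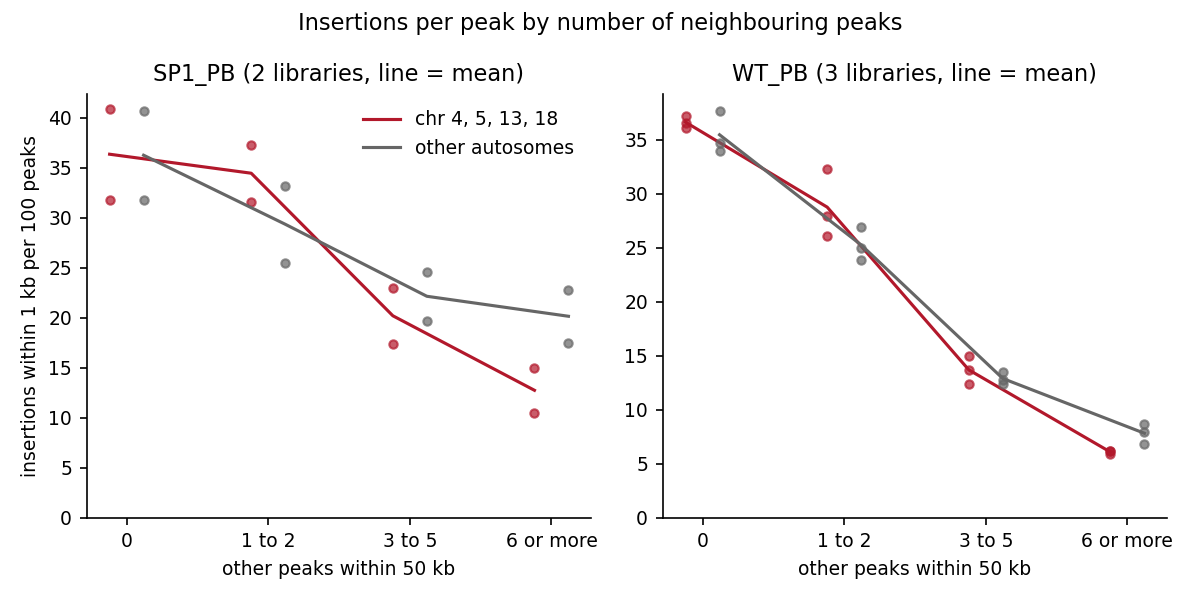
Insertions within 1 kb per 100 peaks (vertical axis) by the number of other peaks within 50 kb (horizontal axis), for SP1_PB (left, 2 libraries) and WT_PB (right, 3 libraries), on chromosomes 4, 5, 13 and 18 (red) and on the other autosomes (grey); points are libraries and lines means. With no neighbour the red and grey points coincide in SP1_PB (40.9 and 31.8 against 40.7 and 31.8), and with 6 or more neighbours the red points (15.0 and 10.5) lie below the grey ones (22.8 and 17.5).

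The comparison was also made at equal score and at equal width. The autosomal peaks were divided into 4 classes of equal size by score. In the class with the lowest scores, SP1_PB insertions per peak here were 0.926 times those elsewhere (0.773 to 1.11), and WT_PB insertions 1.45 times (1.28 to 1.65). In the class with the highest scores, from 599 up, insertions per 100 peaks were 112 and 97.3 for SP1_PB, and 116 and 84.9 for WT_PB. SP1_PB over WT_PB, here over elsewhere, was 0.637 (0.510 to 0.796), 0.774, 0.812 and 0.849 (0.760 to 0.949) from the lowest to the highest class, each past Fisher's exact test after adjustment over 4 (highest adjusted p = 0.00481). In 4 classes of width, from narrow to wide, it was 0.740, 0.768, 0.713 and 0.917, and the class with the widest peaks did not pass Fisher's exact test (adjusted p = 0.150). On these chromosomes as elsewhere, stronger and wider peaks drew more of the fusion: the ratio of library shares was 2.68 (2.17 to 3.31) in the class with the lowest and 5.37 (4.83 to 5.96) in that with the highest scores.

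Most peaks were not hit. Of the 2550 peaks, 597 (23.4%, Wilson interval 21.8 to 25.1) had an SP1_PB insertion within 1 kb, against 21.6% (21.1 to 22.1) on the other autosomes, and 224 had one in both libraries. The 11 peaks with 10 or more held 8.78% of the SP1_PB insertions at peaks, and the 85 with 5 or more were 3.33% of the peaks, against 2.44% elsewhere. Peaks with no insertion had a median score of 357 and a median width of 766 bp, and those with 10 or more had medians of 957 and 1416 bp. In the class with the highest scores, 353 of 618 peaks (57.1%) had none, against 61.5% on the other autosomes. These shares depend on depth, and at this depth a peak without an insertion is not shown to lie outside the reach of the fusion.

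Single peaks were tested over the whole genome by Fisher's exact test, libraries pooled, where at least 5 insertions of the 5 libraries lay within 1 kb. Of 1797 peaks tested 54.1% were called higher in SP1_PB (adjusted p under 0.05 and both libraries above the WT_PB share). On chromosomes 4, 5, 13 and 18, 229 of the 2550 peaks reached 5 insertions and 109 were called higher, 47.6% of those tested, against 55.0% on the other autosomes. Over all peaks the order was the other way, with 4.27% called here and 3.55% on the other autosomes, and 8.98% of the peaks here reached 5 insertions, against 6.45%. They were 35 on chromosome 4, 40 on chromosome 5, 14 on chromosome 13 and 20 on chromosome 18, where 62.5% of the tested peaks were called. Of 111 isolated peaks tested 47 were called (42.3%), against 203 of 482 (42.1%) on the other autosomes. The limit of 5 counts insertions of both transposases, so a peak can be tested through the SP1_PB insertions it is then called for. The percentages of tested peaks are shaped by this limit and do not measure how strongly peaks drew the fusion. By Fisher's exact test 0 peaks were called lower, here or elsewhere, and 0 had a lower SP1_PB share at an unadjusted p under 0.05. At this depth that says little, since a peak with no SP1_PB insertion needs 22 WT_PB insertions to reach 0.05, and 1 of the 229 peaks tested here had as many insertions in all. The count was 51 without SP1_PB replicate 1 and also 51 without SP1_PB replicate 2, and only 5 with 1 insertion per cluster of positions within 1 kb.

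The leading peaks were picked by p or by count from these insertions, so their ratios tend to overstate the excess. All coordinates are in hg18, and genes were not assigned, as no gene annotation of that build was used here. The isolated peak on chromosome 5 from 171813290 to 171814180 is 891 bp wide and lies 79.9 kb from the next peak, and its score of 490.61 is moderate. It had 7 and 6 SP1_PB insertions and none in the 3 WT_PB libraries, at least 23.9-fold more when WT_PB is set at a floor of 3 insertions in all (adjusted Fisher's exact p = 7.89e-09). Its 13 insertions fell on 6 sites once positions within 3 bp were merged over both libraries, and 1 lay inside the peak.

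On chromosome 18 the peak from 75106360 to 75107672 had 3 and 11 SP1_PB insertions, against 0, 1 and 1 in WT_PB, a ratio of 38.6 (8.77 to 169.8, adjusted p = 4.00e-08 in Fisher's exact test). It covers 10 SP1_PB sites, and 13 of the 14 insertions lay inside the peak. Most of its insertions came from replicate 2. The isolated peak on the same chromosome from 9324180 to 9325425, 139 kb from the next, had 6 and 4 SP1_PB insertions on 5 sites and none in WT_PB, at least 18.4-fold more. All 10 lay inside it.

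On chromosome 4 the peak from 88074777 to 88076211 had the most SP1_PB insertions of all 2550, 9 and 7, against 2 in each WT_PB library, a ratio of 14.7 (5.75 to 37.6, adjusted p = 2.01e-07 in Fisher's exact test). They fell on 8 sites. The peak from 1551805 to 1553220 has the highest score of these chromosomes, 2461.74, and 17 neighbours within 50 kb. It had 5 and 5 SP1_PB insertions on 6 sites and none in WT_PB, at least 18.4-fold more.

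On chromosome 13 the isolated peak from 27092042 to 27094506, 167 kb from the next and 2465 bp wide, had 4 and 5 SP1_PB insertions and none in WT_PB, at least 16.5-fold more (adjusted Fisher's exact p = 1.64e-06). These fell on only 3 sites. The 12 called peaks with the smallest p, 3 from each chromosome, had 8 to 16 SP1_PB insertions, and 5 of the 12 had no WT_PB insertion. Of the 14 called peaks named by the rules, 12 were still called when both libraries of SP1_PB, and all of WT_PB, were pooled and each site counted once per group, an alternative chosen after seeing the data. The peak from 27092042 was among those lost. Of the 14, 9 were called without positions present in more than 1 library, 12 without SP1_PB replicate 1, 11 without SP1_PB replicate 2, and 0 with 1 insertion per cluster of positions within 1 kb.

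**Figure D5:**
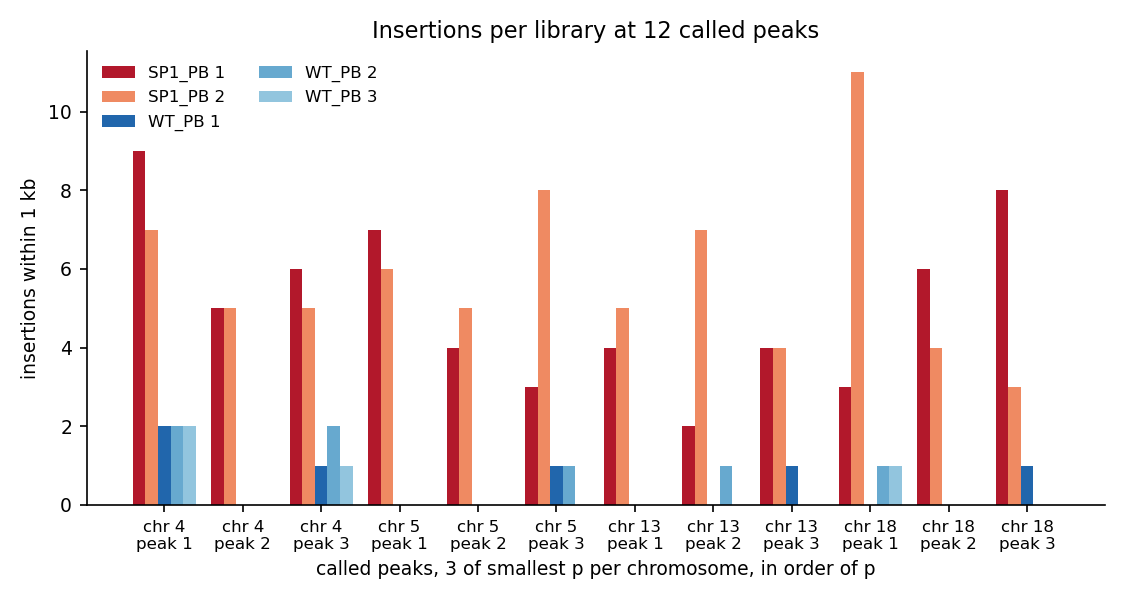
Insertions within 1 kb (vertical axis) in each of 2 SP1_PB and 3 WT_PB libraries at the 3 called peaks of smallest p on each of chromosomes 4, 5, 13 and 18 (horizontal axis, in order of p). Every one of the 12 peaks has insertions in both SP1_PB libraries, which the call itself requires. No WT_PB library has more than 2 at any of them, which picking by smallest p favours.

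High scores did not guarantee insertions. Of the 5 peaks with the highest scores on these chromosomes, the strongest is the one described on chromosome 4. The peaks on chromosome 4 from 7758238 to 7759798 (score 2412.09) and from 1029457 to 1031346 (2091.65), and on chromosome 5 from 444137 to 445834 (2073.8), had no insertion of either transposase within 1 kb. The peak on chromosome 4 from 37363712 to 37365081 (2225.04) had 0 and 2 SP1_PB insertions and none of WT_PB.

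In windows of 50 kb, which also take in insertions away from peaks, fewer were called higher here than over the genome. Of 15678 windows tested with Fisher's exact test, 6.88% were called higher and 0.166% lower. On chromosomes 4, 5, 13 and 18, 93 of 2537 tested windows (3.67%) were called higher and 8 (0.315%) lower. Windows too needed at least 5 insertions of both transposases together, and these percentages are shaped by that limit. A peak lay in 84 of the 93 higher windows (90.3%), in none of the 8 lower ones, and in 32.3% of those not called. All 8 lower windows lay on chromosome 4, and of the 5 with the smallest p, 4 lay between 30.35 and 30.65 Mb, and held no peak. Without SP1_PB replicate 1 there were 32 higher and 0 lower windows, and without SP1_PB replicate 2 there were 41 and 1.

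In the 5 higher windows of smallest p most insertions of the fusion were near a peak, with 1 exception. On chromosome 5, 171.80 to 171.85 Mb held 8 and 7 SP1_PB insertions, against 2, 2 and 0 of WT_PB (ratio 20.7, 6.86 to 62.3), and 13 of the 15 were those of its isolated peak. On chromosome 4 from 25.45 to 25.50 Mb 5 and 4 SP1_PB insertions stood against none of WT_PB, at least 16.5-fold more, although none lay within 1 kb of the window's single peak. Those 9 insertions fell on only 4 sites, and the window was not called without SP1_PB replicate 1, without positions present in more than 1 library, with 1 kb clusters, with at least 10 insertions, or with libraries pooled.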

How the data were processed

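Insertion files hold raw read counts per position, deposited without normalization. Per the deposited readme the authors used bowtie to align reads to hg18, and the submitters' processing notes name version 0.12.7. No read filter is given, nor the strand. Peaks of 1 ChIP-seq sample carry a score in the authors' MACS output, per the deposited readme. Its scale and threshold are not given, and it only ranks peaks within this list. The expression table was not used.

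Repeated lines for a position were merged, so that each position was 1 insertion, assigned to its nearest peak. Peak starts are given 1-based. Span was taken as the last position or peak of a chromosome. Fisher's exact test (two-sided) was run on pooled counts, and libraries were compared with an exact permutation test. Share ratios, unmatched SP1_PB over WT_PB ratios and autosomes were called only when library values of the groups also did not overlap. The odds ratio needed that and a 95% interval excluding 1, and matched ratios needed such an interval alone. Per-peak SP1_PB ratios needed an exact binomial p under 0.05 with both libraries on the same side of 1. Peaks and windows needed both SP1_PB libraries on the same side of the pooled WT_PB share. Tests over peaks, windows and autosomes used Benjamini-Hochberg adjustment at 0.05 and ran on the whole genome. Those over peaks and windows were also run on simulated counts. The simulated counts were independent and lack the clustering of positions in these data, so they give no error rate for the calls here. No molecular identifiers are described, so reads may not be independent molecules, and intervals cover counting error only.

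Named were the 3 called peaks of smallest p per chromosome, the 6 with most SP1_PB insertions, the 5 with the highest scores, the 5 isolated ones with most insertions, and the 5 higher and 5 lower windows of smallest p, with some given as ranges. The chromosomes and lists were chosen with earlier results of these data known. Alternatives covered how positions, distances, neighbours and libraries were counted. Python 3.11, numpy 2.4.6, scipy 1.17.1, pandas 2.3.3 and matplotlib 3.10.9 were used.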

Additional observations from a re-analysis of the deposited data

Results flagged for a closer look

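The effect of the SP1 fusion relative to the wild-type transposase differed between chromosomes 4, 5, 13 and 18 and the other autosomes by 2 measures over all peaks, by Fisher's exact test or by an interval that excluded 1, with no overlap between libraries of the groups. SP1_PB over WT_PB insertions at peaks, per peak, were 0.798 times those of the other autosomes, and the odds of lying near a peak, against insertions of the same chromosomes away from peaks, were 1.24 times as high. The 2 measures point in opposite directions for the same insertions. The same difference was not called at isolated peaks (0.972) or at peaks matched for neighbours and score (0.982).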

How the results depend on the processing

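The share ratio near peaks, the per-peak SP1_PB ratio and the odds ratio kept their direction and call in all alternatives run. The share ratio ran from 4.47 within 5 kb to 15.7 inside peaks, the per-peak ratio reached at most 1.18, and the odds ratio ran from 1.20 to 1.43. The per-peak ratio of SP1_PB over WT_PB ran from 0.782 to 0.897 and lost its call only inside peaks (0.897). At isolated peaks, values near 1 crossed it: SP1_PB over WT_PB was 1.01 with at least 2 reads per position, 1.09 inside peaks, and 0.848 (called) with isolation of 100 kb. SP1_PB per isolated peak was 0.971 with 1 kb clusters, 0.998 without chromosomes 8, 10, 16 and 17, 0.910 with isolation of 100 kb, and 1.09 (called) at peaks scoring at or above the median. The matched SP1_PB over WT_PB ratio was 1.07 inside peaks and 1.00 without chromosome 19, and the matched SP1_PB count ratio was 0.983 with 1 kb clusters and 1.09 (called) at the higher-scoring peaks. For both values at the higher-scoring peaks, neighbours were counted among those peaks only, so isolation there ignores weaker peaks nearby. Where not stated, the cause was not tested.

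Counts of calls moved most. The 109 peaks called higher became 38 without positions in more than 1 library, 72 with at least 2 reads, 50 inside peaks, 30 with at least 10 insertions, 5 with 1 kb clusters and 58 with libraries pooled and sites merged; the last 2 count fewer insertions by construction. Leaving out a library gave 51 to 98. The 93 higher windows became 56 with positions within 3 bp merged, 5 with 1 kb clusters, 44 without shared positions, 60 with no minimum and 28 pooled, and 32 to 90 without a library. The 8 lower windows became 5, 0 and 2 under the first 3 of these and 1 pooled, and 0 to 10 without a library. The 11 called autosomes became 7 with positions merged, 6 with at least 2 reads, 2 inside peaks, 5 at the higher-scoring peaks and 7 pooled, and 7 to 9 without a library.

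The replicate numbers pair no samples by the labels. Over 2752 windows of 1 Mb the deviations of same-numbered libraries had r = 0.013 and -0.022. With only 2 SP1_PB libraries their deviations mirror each other, and SP1_PB 1 with WT_PB 2 gave 0.022. These values therefore say little about pairing. With a replicate block over numbers 1 and 2 the share ratio was 6.59 and the odds ratio 1.26. SP1_PB over WT_PB, here over the other autosomes, was 0.806 at all peaks, 0.983 at isolated peaks and 0.990 at matched peaks. No call was lost or gained for these ratios, and 98 peaks, 78 higher and 9 lower windows and 9 autosomes were called. Depth limits single peaks: 229 of 2550 had enough insertions to be tested.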

Other observations

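Dense groups of peaks on these chromosomes lay mostly at chromosome ends, a description chosen after seeing the data. Of the 487 peaks with 6 or more neighbours, 87.3% lay within 10 Mb of an end of their chromosome, against 56.8% on the other autosomes. On chromosome 4 all 216 of them lay in the first 10 Mb. The spans differ, from 46.9 Mb on chromosome 21 to 247 Mb on chromosome 1. The last 10 Mb at each end is therefore not the same part of each, and the 2 percentages are not like for like. The dense peaks near ends here drew 12.7 and 8.94 SP1_PB insertions per 100 peaks, against 19.8 and 15.9 at such peaks of the other autosomes, and 5.65 to 5.88 WT_PB insertions, against 6.29 to 7.57. The 62 dense peaks here that lay elsewhere drew 30.6 and 21.0 SP1_PB insertions per 100, against 26.7 and 19.6 on the other autosomes. The 300 dense peaks in the first 10 Mb of chromosomes 4 and 5 drew 18.3 SP1_PB and 13.7 WT_PB insertions per 100, pooled over libraries. Over all densities, peaks near ends had a median score of 357 and a median width of 807 bp here, and peaks elsewhere on these chromosomes 416 and 829 bp.

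Over all peaks, those within 10 Mb of an end drew 38.8 SP1_PB and 34.6 WT_PB insertions per 100 on these chromosomes, and 38.5 and 29.8 on the other autosomes. Peaks elsewhere drew 69.8 and 100.1 here, and 57.1 and 64.2 on the other autosomes. The ratio of library shares was 6.18 (5.35 to 7.14) near ends and 3.85 (3.56 to 4.16) elsewhere on these chromosomes, and 7.12 and 4.90 on the other autosomes. None of these differences was tested.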
